A study of Arabidopsis thaliana with 4 samples.

Results

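The genes described here are a tandem cluster of aldo/keto reductases on chromosome 1 of Arabidopsis thaliana (AT1G60680, AT1G60690, AT1G60710, AT1G60730 and AT1G60750) and their relative AT1G10810, elsewhere on the same chromosome. They were chosen by locus, and the cluster was picked because AT1G60750 had one of the largest differences between the genotypes on these arrays. Of the 6 genes, 5 had a probe set paired with 1 gene, out of 13350 genes with such a probe set on the array. AT1G60680 had none and is given no value. RNA came from root tips of seedlings kept for 4 days at 23 °C on MS medium in continuous light, from wild type on 2 arrays and from the sol2 mutant on 2 arrays. SOL2 (CORYNE) is a receptor-like kinase through which CLE peptides act. The labels used here give neither the sol2 allele nor the accession background, and they do not say that replicates came from separate cultures, so the spread between arrays may be partly technical.

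Aldo/keto reductases are soluble enzymes that use NADPH or NADH to reduce the carbonyl group of aldehydes and ketones to an alcohol. In plants the superfamily includes enzymes that remove reactive aldehydes formed under stress, enzymes of vitamin and specialised metabolite synthesis, and many members whose substrates are not known. The genes of the cluster are annotated as probable aldo/keto reductases by sequence. AT1G60710 carries the name ATB2.

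Signals are linear, in arbitrary units, and were scaled to a common level on each array, and those of different probe sets are not set against each other here. The highest signal of 27 control probe sets for bacterial transcripts was 34.1, and the lowest signal of any reductase gene of the group was 53.4. Differences are given as sol2 minus wild type on the scale of log2(signal + 18.4), with the standard error (SE) and 95% interval of a limma fit to 13648 probe sets. The value 18.4 was added to damp noise at low signal, so the log2 difference of a dim gene is smaller than its plain ratio implies. Probe sets with a mean at or above the 40th percentile entered the fit. All 5 measured genes passed this filter, but AT1G60750 and AT1G10810 reached it only through the genotype in which they were brighter. An adjusted p under 0.05 counted as a call. Because the same contrast picked the cluster, the values of its genes are descriptions and carry no p-value.

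AT1G60750, which closes the tandem row, had a signal of 57.1 and 64.2 on the wild type arrays and of 680.5 and 656.8 on the sol2 arrays. Both sol2 arrays were far above both wild type arrays, and the arrays of each genotype lay close together. The means were 60.7 ± 5.02 in wild type and 669 ± 16.8 in sol2 (SD, n = 2), a ratio of 11.0. The log2 difference was 3.12 ± 0.22 (SE), with an interval of 2.62 to 3.63. Over the 4 pairings of single arrays from different genotypes it ran from 3.03 to 3.21. Only 12 of the 13648 tested probe sets, this one included, had a difference at least as large. A high rank was fixed in advance, since the cluster was picked for this difference, and it supports nothing further.

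**Figure D1:**
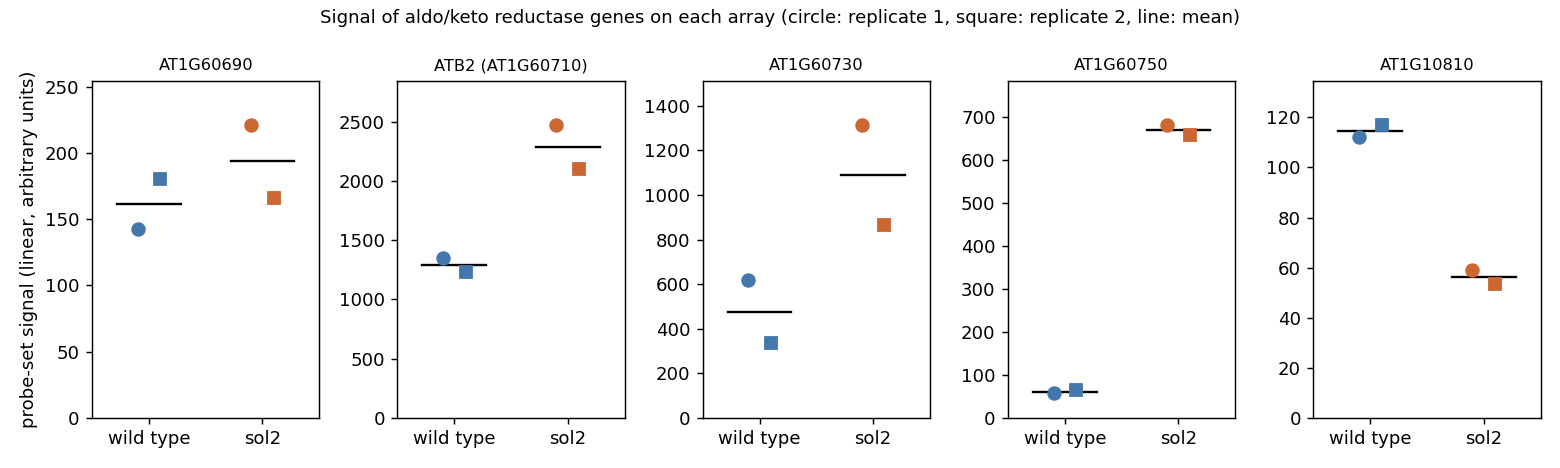
Linear probe-set signal (vertical axis from 0, arbitrary units, own scale for each gene) of the 5 measured reductase genes in wild type and sol2, with replicate 1 as a circle, replicate 2 as a square and the mean of each genotype as a line. AT1G60750 goes from 57.1 and 64.2 to 680.5 and 656.8, AT1G10810 is lower on both sol2 arrays, and the genotypes overlap for AT1G60690.

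ATB2 gave 1347 and 1229 in wild type, against 2477 and 2104 in sol2. Its genotypes did not overlap either, at a much smaller distance than for AT1G60750. The means were 1288 ± 83.5 and 2290 ± 264 (SD, n = 2), a ratio of 1.78. The log2 difference was 0.82 ± 0.18, with an interval of 0.40 to 1.23, and it did not reach the threshold of the fit. The annotated spans of ATB2 and its neighbour AT1G60720 overlap in the TAIR10.1 table, which gives no strand.

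AT1G60730, the reductase gene between ATB2 and AT1G60750, gave 618.8 and 334.7 in wild type, against 1314.7 and 863.3 in sol2. Every sol2 value was above every wild type value, while the arrays within a genotype differed widely and replicate 1 was the brighter in both. The ratio of the means was 2.28, from 477 ± 201 to 1089 ± 319 (SD, n = 2). The log2 difference was 1.19 ± 0.32, with an interval of 0.45 to 1.94, and was not called. Between single arrays it ran from 0.47 to 1.92.

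AT1G60690, the measured gene nearest the other end of the row, gave 142.7 and 180.4 in wild type, against 221.4 and 166.3 in sol2. The dimmer sol2 array lay between the wild type arrays, so the genotypes overlapped. The log2 difference of 0.23 ± 0.25 had an interval from -0.35 to 0.82, which includes 0 and changes of up to about the size fitted for ATB2.

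AT1G10810 had the opposite sign. Its signals were 112.0 and 117.0 in wild type, against 59.2 and 53.4 in sol2. Replicates of each genotype lay within a few units of each other, and wild type was 2.03 times as bright, with means of 115 ± 3.54 and 56.3 ± 4.10 (SD, n = 2). The log2 difference was -0.83 ± 0.25, with an interval of -1.40 to -0.26, and was not called. This gene passed the filter narrowly, since only 0.315% of the tested probe sets had a lower mean level.

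Set side by side, the 5 log2 differences ran from -0.83 to 3.12. Along the row they were 0.23 at AT1G60690, 0.82 at ATB2, 1.19 at AT1G60730 and 3.12 at AT1G60750. The interval of AT1G60750 did not overlap that of any other gene of the group, whereas those of AT1G60690, ATB2 and AT1G60730 overlapped one another. The fit called 1 of the 5 genes, AT1G60750, and 1.25% of all tested probe sets (0.945% higher and 0.300% lower in sol2). Without overlap between the genotypes there were 3 genes higher in sol2 and 1 lower, where 17.5% and 18.6% of all tested probe sets did the same. Over all tested probe sets the median log2 difference was 0.004. These counts and the comparison of intervals follow from a contrast that was used to choose the cluster and support nothing further.

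**Figure D2:**
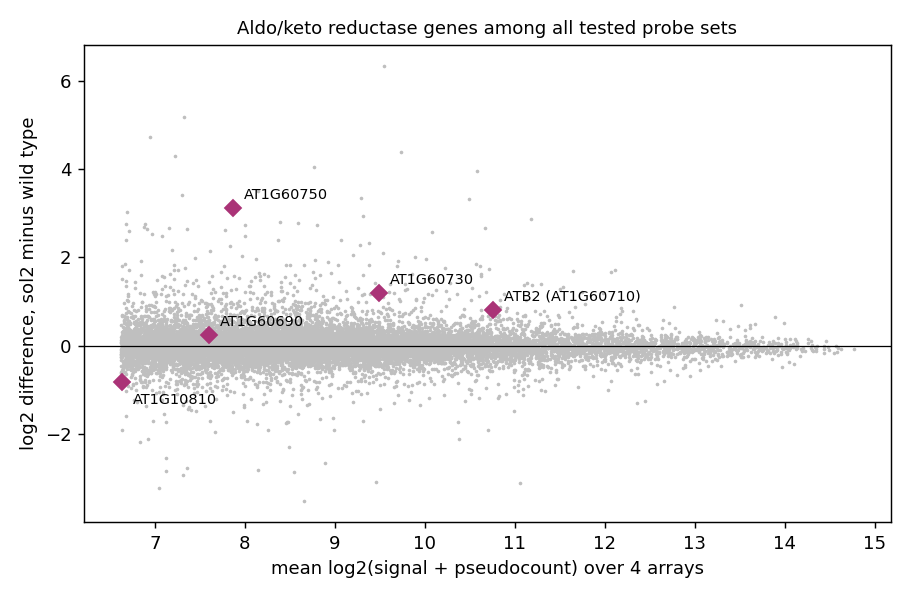
Log2 difference of sol2 minus wild type (vertical axis) against the mean log2(signal + pseudocount) over the 4 arrays (horizontal axis) for the 13648 tested probe sets in grey, with the 5 reductase genes as diamonds. AT1G60750 stands at 3.12 above the cloud around 0, AT1G60730 and ATB2 at 1.19 and 0.82, and AT1G10810 at -0.83 at the low-signal edge.

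The spread between replicates was not used to choose the genes, and it set AT1G60730 apart from the other members. Replicate 1 exceeded replicate 2 by 0.85 in wild type and by 0.60 in sol2 on the log2 scale, more than the absolute replicate difference of 93.2% and 95.4% of the tested probe sets. For AT1G60750 the differences were -0.13 and 0.05, larger than those of 23.7% and 14.5%. ATB2 had replicate differences of 0.13 and 0.23, larger than those of 23.9% and 61.0%. AT1G10810 had -0.05 and 0.11, larger than those of 9.72% and 32.8%. For AT1G60690 they were -0.30 in wild type and 0.38 in sol2, of opposite sign. These were larger than those of 51.3% and 82.2%. The signal ratio of the 3' to the 5' actin control probe sets, a measure of RNA quality and labelling, was 8.45 in wild type and 11.6 in sol2 for replicate 1, and 24.5 and 36.9 for replicate 2. AT1G60730 was thus brighter on the arrays with the lower ratio, whose part in its level was not tested. For ubiquitin the ratio was lower in sol2 (2.46 and 2.29) than in wild type (3.02 and 3.87). The actin ratio was instead higher in sol2 at each replicate number. The part of these ratios in the genotype differences was not tested. The GAPDH ratio was between 0.971 and 1.07 on all arrays.

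The tissue label was checked with markers of root and leaf cells. Few markers had a probe set paired with 1 gene, namely 1 of 6 for the root meristem, 1 of 3 for the root cap, 3 of 4 for root hairs and 1 of 5 for leaf photosynthesis, and none was at or below the bacterial controls. The root cap gene AT1G65570 had 286 and 516 in wild type, against 576 and 631 in sol2. RCA, the activase of Rubisco, had 297 and 251 in wild type, against 184 and 148 in sol2. The meristem receptor kinase gene AT5G48940 ran from 488 to 811 over the 4 arrays. Root hair markers differed among themselves. The peroxidase gene AT4G26010 had 5019.5 and 2857.2 in wild type, against 2161.6 and 1918.3 in sol2 (log2 difference -0.89 ± 0.26). AT1G30870, another peroxidase gene, had 3909.8 and 2678.1 on the wild type arrays and was brighter on those of sol2, at 4930.7 and 3995.3 (0.45 ± 0.22). Summed over the 3 root hair markers, signals ran from 6723 to 10560 in wild type and from 7025 to 8518 in sol2. None of these 6 probe sets was called (adjusted p between 0.238 and 0.964, limma), where 1.25% of all tested probe sets were. An unadjusted p under 0.05 was found for 2 of them, RCA and AT4G26010, and for 8.90% of all tested probe sets. The part of these cells in the reductase values was not tested. In whole root tips, fewer cells of a type and less RNA per cell cannot be told apart. SOL2 itself had no probe set paired with 1 gene and was not analysed here.

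The next question was whether genes around the cluster moved with it. In the order of protein-coding genes the row from AT1G60680 to AT1G60750 holds 8 genes, of which 3 are not reductases of the group. From AT1G60600 to AT1G60850 there were 28 protein-coding genes, and 7 besides the reductases had a probe set paired with 1 gene. None of the 5 above the filter was called by limma, and 1 had an unadjusted p under 0.05, where 8.90% of all tested probe sets did. That gene was ACLA-2, a subunit of the cytosolic ATP-citrate lyase that makes acetyl-CoA, 8 genes beyond AT1G60750. It gave 2095 and 2155 in wild type, against 3017 and 3117 in sol2, without overlap (log2 difference 0.53 ± 0.16, adjusted p = 0.258, limma).

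Between AT1G60750 and ACLA-2, the nearest measured gene AT1G60770 gave 1665 and 2057 in wild type, against 1501 and 1838 in sol2, so that the genotypes overlapped (log2 difference -0.15 ± 0.20, adjusted p = 0.945). On the other side, AT1G60670, next to the unmeasured AT1G60680, had a log2 difference of 0.29 ± 0.29 (adjusted p = 0.922). AtRZ-1b, a glycine-rich RNA-binding protein, had 0.16 ± 0.31 (adjusted p = 0.973), and AT1G60610 had -0.42 ± 0.31 (adjusted p = 0.856). Within the row, AT1G60720, whose probe set has the name ending that marks probes shared between transcripts, was listed at 24.2 and 5.3 in wild type, against 4.2 and 18.0 in sol2, all within the range of the bacterial controls, as were the signals of AT1G60630, at 2.8 and 3.8 in wild type, against 16.2 and 10.2 in sol2.

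**Figure D3:**
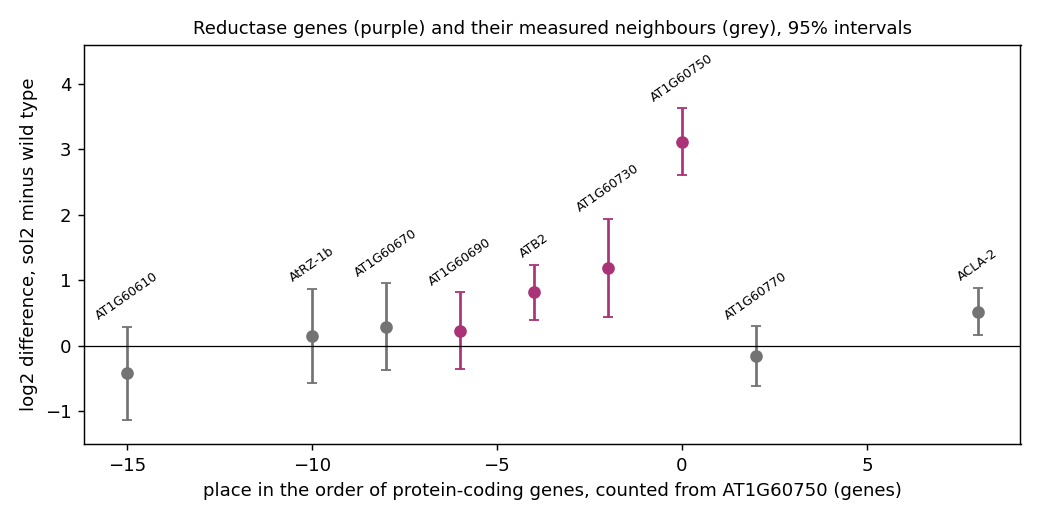
Log2 difference of sol2 minus wild type with its 95% interval (vertical axis) for genes above the filter, placed by their order among protein-coding genes counted from AT1G60750 (horizontal axis), with reductases of the cluster in purple and neighbours in grey. The values along the row go from 0.23 to 3.12, and AT1G60770, 2 genes further on, lies at -0.15.

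Other aldo/keto reductases of the genome were examined as a list of 16 genes outside the cluster. Of these, 8 had a probe set paired with 1 gene and 6 entered the fit, of which 1 rose, none fell and 5 did not pass the test, where 0.945% of all tested probe sets were called higher and 0.300% lower. Their median log2 difference was 0.03, beside 0.004 for all tested probe sets. This list was chosen with earlier results of these data known, so its counts and calls are descriptions. The gene that rose was AT1G59960, an aldo/keto reductase with 59 protein-coding genes between it and the start of the tandem row. Its signals were 394.5 and 541.2 in wild type, against 1166.5 and 1354.7 in sol2. The sol2 arrays were clear of the wild type arrays, with means of 468 ± 104 and 1261 ± 133 (SD, n = 2), a log2 difference of 1.41 ± 0.22 and an adjusted p of 0.0275 (limma). The call ended without the filter on low values (adjusted p = 0.0987) and without sol2 replicate 2 (adjusted p = 0.0836), within a range of 1.44e-12 to 0.0987 over the 12 alternatives.

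The 5 others lay between -0.23 and 0.25. Among them AT4G33670, the L-galactose dehydrogenase of ascorbate synthesis, gave -0.03 ± 0.23 (adjusted p = 0.991). AT1G59950, the next gene to AT1G59960 in locus order, was below the filter, with 2.3 and 37.9 in wild type, against 33.6 and 2.4 in sol2. AT5G01670, also below it, had 19.7 and 39.2 in wild type, against 37.8 and 51.4 in sol2.

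Enzymes outside the aldo/keto reductases that remove carbonyls and quinones formed a second list of 26 genes, also chosen with earlier results known. Of these genes, 13 had a probe set and 11 entered the fit. None was called by limma, where 1.25% of all tested probe sets were, and 1 had an unadjusted p under 0.05, where 8.90% did. Their median log2 difference was 0.02, and the values ran from -0.78 to 0.19. The lowest was that of AER, an alkenal reductase that acts on unsaturated aldehydes and ketones. AER gave 419.5 and 364 in wild type, against 192.8 and 251.5 in sol2, without overlap (log2 difference -0.78 ± 0.23, adjusted p = 0.253). ALDH10A9, a betaine aldehyde dehydrogenase, followed with -0.20 ± 0.16 (adjusted p = 0.895). The stress-responsive aldehyde dehydrogenase gene ALDH7B4 had signals between 5280 and 6495 on all arrays and a log2 difference of -0.08 ± 0.16, with an interval from -0.45 to 0.28.

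**Figure D4:**
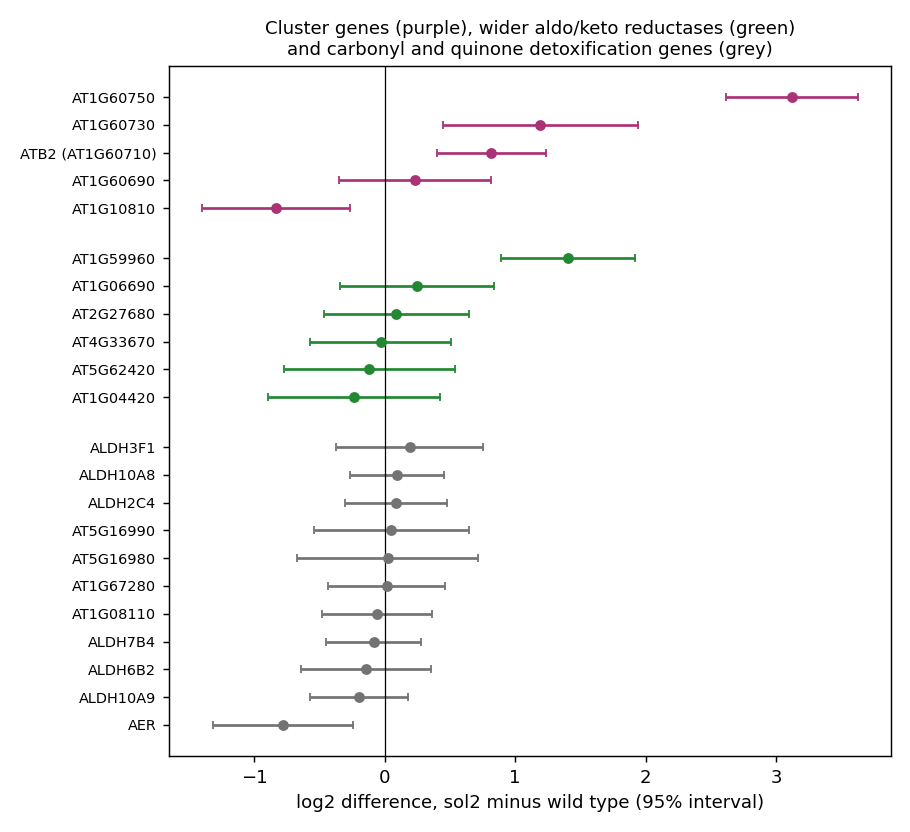
Log2 difference of sol2 minus wild type with its 95% interval (horizontal axis) for the 5 measured cluster genes, 6 wider aldo/keto reductases and 11 carbonyl and quinone detoxification genes above the filter (vertical axis, grouped by list). AT1G60750 at 3.12 and AT1G59960 at 1.41 are the called genes, and the intervals of the other wider reductases include 0.

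Patterns over the 4 arrays were compared with that of AT1G60750 by the Euclidean distance between log2 values centred on each probe set's own mean, among 7403 other tested probe sets with 1 gene. Only 5 lay closer than 0.5, and all were called. This likeness rests on the same contrast and on 4 arrays, and is given as a description. The nearest was AT1G62480 (distance 0.24), with 790 and 891 in wild type, against 6411 and 6180 in sol2. The C1-domain gene AT4G02540 came next (0.32), from 100.8 and 116.7 to 924.2 and 822.4. AT5G62340, of the pectin methylesterase inhibitor type, had a distance of 0.35, AT2G43535 also 0.35, and AT5G43040, another C1-domain gene, 0.39. No other gene of the cluster was among them, which their smaller log2 differences had already fixed.

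Under every alternative fitted, log2 differences were 2.41 to 3.42 for AT1G60750, 0.70 to 0.94 for ATB2 and 0.77 to 1.62 for AT1G60730. They were 0.05 to 0.42 for AT1G60690 and -0.997 to -0.51 for AT1G10810. No sign changed, but leaving out an array could not change it for the 4 genes whose genotypes did not overlap. Changing the filter or the prior variance, or adding a replicate block, leaves an estimate as it was. Single arrays bore on AT1G60730 in particular, which was at 1.62 when wild type replicate 1 was left out and at 0.77 when wild type replicate 2 was. It was at 1.49 without sol2 replicate 2. ATB2 was at 0.88 with wild type replicate 1 left out and at 0.75 with replicate 2 left out. Where a genotype had only 1 array left, its spread was taken from the other genotype. Wild type replicate 2 lay nearer to the sol2 arrays (median absolute log2 difference 0.220 and 0.189) than to wild type replicate 1 (0.294). Wild type replicate 1 was itself nearer to sol2 replicate 1 (0.249), and the sol2 arrays differed by 0.182. By correlation across probe sets, wild type replicate 2 was nearer to sol2 replicate 2 (r = 0.966) than to wild type replicate 1 (0.963), but not nearer to sol2 replicate 1 (0.961).

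**Figure D5:**
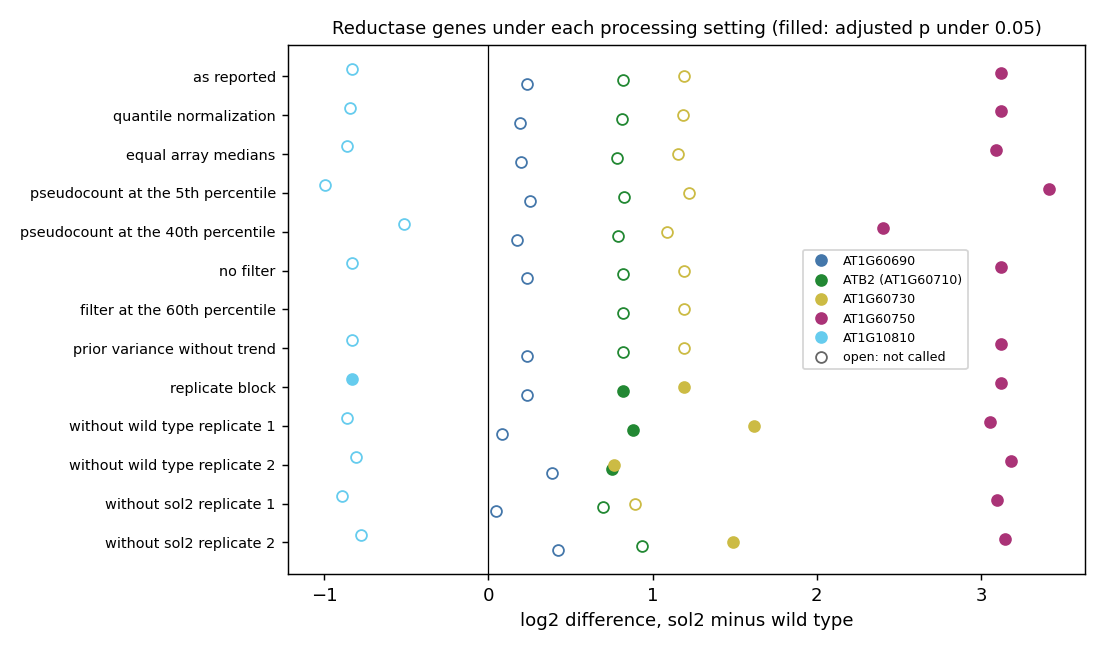
Log2 difference of sol2 minus wild type (horizontal axis) of the 5 measured reductase genes under each processing setting (vertical axis), with filled points where the adjusted p was under 0.05. AT1G60750 lies between 2.41 and 3.42 and AT1G60730 between 0.77 and 1.62. The fills describe each fit and support nothing, since this contrast picked the cluster.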

How the data were processed

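The deposited values are probe-set intensity values on a linear scale, which the authors made from arrays hybridised with biotin-labelled cRNA, and GCOS is the tool named in the submitters' processing notes. The algorithm and scaling target are not given in the sources used here. In the values themselves, the mean of the middle 96% lay between 500.051 and 500.056 on every array. Probe sets were named through the platform annotation and the RefSeq gene table (TAIR10.1), which also gave the gene order. Of 22746 probe sets other than controls, 13513 had 1 gene, 503 several and 8730 none in these tables. Signals were analysed as log2(signal + 18.4), 18.4 being the 20th percentile of all values. Probe sets at or above the 40th percentile of mean log2 value (13648) were fitted with limma 3.58.1 in R 4.3.3 (two-sided, intensity trend, genotype only), with Benjamini-Hochberg adjustment over all of them. The fit was first tested on simulated data with independent noise on each array. Those data lacked the correlation of 0.441 found here between the replicate differences of the 2 genotypes. Positions, likeness and figures used Python 3.11.15, pandas 2.3.3 and matplotlib 3.10.9. With 2 arrays per genotype, precision is limited by their number.

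The cluster genes and the context lists were chosen with earlier results of these data known. The genes named were all measured members, the called genes of each context list or otherwise the pair with the largest change, all measured genes from AT1G60600 to AT1G60850, and the 5 patterns nearest AT1G60750. AT4G33670, ALDH7B4, AT1G59950 and AT5G01670 were named after their values were seen. Neither cross-hybridisation between these related genes nor promoter sequence was examined here.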

Additional observations from a re-analysis of the deposited data

How the results depend on the processing

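Alternatives were quantile normalization, equal array medians, pseudocounts at the 5th and 40th percentile, no filter or one at the 60th percentile, a prior variance without trend, a replicate block and each array left out in turn. No call went against a reported direction, though the filter, prior variance and block settings leave each estimate unchanged. Over all probe sets, 60 were called higher and 9 lower without the filter, and 68 and 15 with the 60th-percentile filter, which change the number of probe sets tested. With the latter AT1G60750, AT1G60690 and AT1G10810 were not tested, and 0 members were called. Without the filter 0 of the wider aldo/keto reductases were called. The labels do not pair arrays by replicate number. Across probe sets, the change from replicate 1 to 2 in wild type correlated with that in sol2 at 0.441. Adding a replicate block gave 660 higher and 462 lower probe sets. Members called were then 3 higher (AT1G60750, ATB2 at 0.82 and AT1G60730 at 1.19) and 1 lower (AT1G10810 at -0.83), and 1 detoxification gene, AER, was lower. The neighbour ACLA-2 was also called then, at 0.53 (adjusted p = 0.0109, limma, within a range of 0.0109 to 0.9999 over its 12 alternatives). With arrays left out in turn, 107 to 876 probe sets were higher and 46 to 549 lower, both highest without wild type replicate 2. Members called higher ranged from 1 to 3, wider reductases from 0 to 1, and detoxification genes called lower from 0 to 1. ATB2 ranged from 0.70 to 0.94 and AT1G60730 from 0.77 to 1.62 in these fits. The cause of these changes was not tested. Of 33 other named or listed genes, 3 changed their call in some setting (AT1G59960, AER and ACLA-2). Those of the 33 below the filter were fitted only without it, so their call could not change.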

Other observations

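The other genes of the cluster had nearest patterns of their own, listed after their values were seen, by the same distance over 4 arrays. Closer than 0.5 to ATB2 lay 298 of 7403 probe sets, and 335 to AT1G10810, against 23 for AT1G60730. The nearest to ATB2 was AT1G33110 (distance 0.04), with 504.3 and 459 in wild type, against 911 and 776.5 in sol2. The nearest to AT1G60730 was AT4G13030 (0.23), with 68.2 and 38.9 in wild type, against 159.7 and 116.2 in sol2, again brighter on replicate 1 in both genotypes. The nearest to AT1G10810 was AT3G52610 (0.06), with 502.7 and 550 in wild type, against 309.8 and 275.9 in sol2. SEC1B, a protein of the SEC1 family that binds syntaxins, came next (0.09), with means of 186 ± 4.53 in wild type and 103 ± 5.09 in sol2 (SD, n = 2). None of these 4 genes was called, and neither were the members they were matched to.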
